A study of Mus musculus with 16 samples.

Results

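The response of the left ventricle to prepubertal castration was examined in male mice of the C57BL/6J strain, using 8 of the 16 arrays of a study that asked how chromosome Y and postpubertal testosterone bear on the heart. The arrays came from 4 castrated (CX) and 4 sham-operated C57BL/6J mice, and the other 8 came from 4 CX and 4 sham-operated mice of the consomic strain C57.YA, a C57BL/6J line whose chromosome Y was replaced by that of strain A/J. Surgery took place at 3 to 4 weeks of age, ahead of the pubertal rise in testosterone, and total RNA of the left ventricle was taken at 12 weeks of age, with 1 mouse per array. The comparison was chosen by its labels alone (strain C57BL/6J, CX minus sham), so that every value given is a contrast between the same 4 CX and 4 sham mice unless C57.YA is named. RNA was hybridized to Illumina MouseRef-8 BeadChips, on which each transcript is read by beads carrying a short probe, and the brightness of a probe was followed on a log2 scale after quantile normalization over the 16 arrays.

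Testosterone acts through the androgen receptor, a nuclear receptor that binds DNA and is present in heart muscle cells as well as in vessels and fibroblasts. It is also turned into estradiol in some tissues, and its removal changes the output of the pituitary, the liver and the thymus, so that direct and indirect effects on the heart are not separated by castration. The adult male heart is larger than that of females, and androgens are known to favour growth of cardiac muscle. Castration, conversely, is known to release thymic and immune tissue from androgen restraint. Since the ventricle was taken as whole tissue, fewer cells of a type and less RNA per cell could not be told apart.

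Of 25697 probes on the array, 12764 were tested because they were detected (detection p at most 0.04) on at least 2 of the 4 arrays of any group. With limma, 1124 probes (8.81%) passed an adjusted p under 0.1, the false discovery rate used in the study, 523 (4.10%) being higher and 601 (4.71%) lower in CX hearts. They stood for 939 genes, of which 443 had a probe that was higher and 496 a probe that was lower. At the same threshold 2510 probes (19.7%), or 20.5% of genes at their brightest probe, were called in C57.YA. When arrays were scaled by their medians instead of their quantiles, 366 probes were called higher and 197 lower, so that the share of higher calls depends on the scaling. Changes were small: the median fold of called probes was 1.248, 129 of them exceeded 1.5-fold, and 26 exceeded 2-fold (11 higher and 15 lower). Signals had no background subtracted, which draws fold changes of dim probes toward 1. The CX and sham arrays did not overlap at 899 of the 1124 called probes, against 12.2% of all probes tested. For counts over gene lists each gene was taken at its brightest probe, which gave 8831 genes, 382 called higher (4.33%) and 436 called lower (4.94%), with a median log2 change near 0 (0.00098). These shares (9.26% together) are the reference for every list count that follows.

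**Figure D1:**
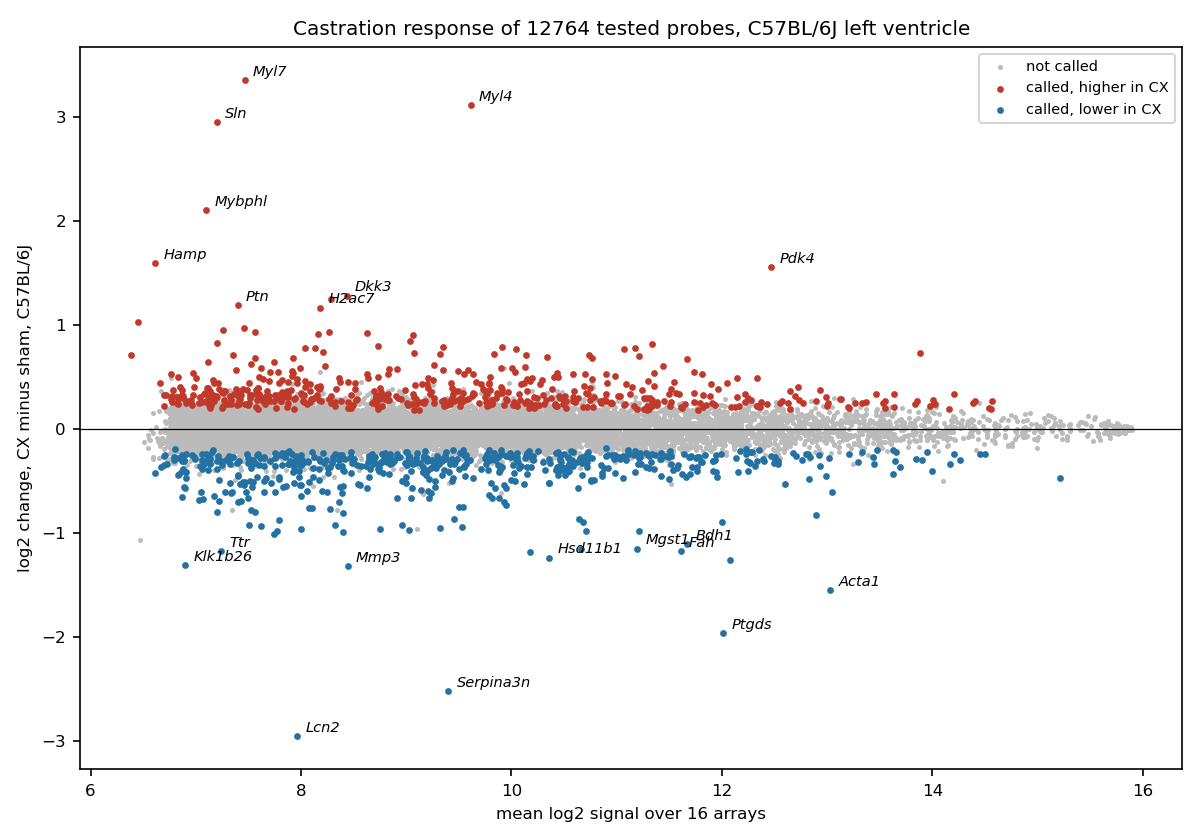
Each point is 1 of the 12764 tested probes, with its mean log2 signal over the 16 arrays on the x axis and its log2 change (CX minus sham, C57BL/6J, 4 mice each) on the y axis. Probes called higher (523) and lower (601) at an adjusted p under 0.1 are coloured, and most of them lie close to 0, with 26 beyond a 2-fold change.

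The tissue was checked first. At the brightest probe 0 of the 11 tested genes of the ventricular myocyte list passed the test. Their summed log2 signal was 18.25 to 18.34 on the CX arrays and 18.26 to 18.35 on the sham arrays. That sum is carried by the brightest genes, such as Myl2 (mean 15.90 in CX and 15.91 in sham hearts). Quantile normalization leaves little room for a difference at such signals, so that the sum says little of ventricular content. Dimmer members went both ways without a call, such as Lrrc10 (0.26), Irx4 (-0.16) and Myh7 (-0.29). For Hey2, 1 of 2 probes was called lower. The CX arrays nonetheless stood apart in genes that mark atrial muscle. Myl7, the atrial regulatory myosin light chain, had log2 signals of 9.98, 11.23, 9.26 and 9.03 on the CX arrays, against 6.85, 6.53, 6.41 and 6.30 on the sham arrays, where it was not detected. It was at least 7.53-fold higher in CX hearts (limma, adjusted p = 1.2e-06). The same 4 arrays were high for Myl4 (the atrial essential light chain, log2 change 3.12), for Sln (sarcolipin, an inhibitor of the calcium pump, at least 5.36-fold) and for Mybphl (a myosin-binding protein, at least 3.18-fold). CX replicate 2 was the highest for each of the 4 genes. Over these 4 genes the mean log2 signal was 9.23 to 11.16 on the CX arrays and 7.03 to 7.11 on the sham arrays, whereas the C57.YA arrays lay between 6.99 and 7.65. The other 7 tested genes of the atrial list were divided. Dkk3 was also higher (log2 change 1.28), with CX replicate 2 again the highest. Nppa, which encodes atrial natriuretic peptide (-0.33), Stard10 (-0.30) and Fgf12 (-0.30) were lower, calls that were lost on leaving out 1 array, and Kcnj3 (-0.03), Nr2f1 (-0.05) and Nr2f2 (-0.24) were not called. The sources used here do not say how the chambers were separated. With the mean signal of the 4 genes as a covariate, whose CX and sham values do not overlap, 80 of the 12764 probes were called, against 1124 without it. The part of atrial RNA in the changes described here was not otherwise tested.

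The largest changes in the other direction were in secreted proteins of the kind that the liver and other tissues release in inflammation. Lcn2, which encodes the iron-sequestering protein lipocalin 2, had log2 signals of 6.65, 6.54, 6.83 and 6.54 on the CX arrays, where it was not detected, and of 9.54, 9.45, 10.05 and 9.33 on the sham arrays. The groups were far apart, with at least 6.11-fold lower signal in CX hearts (limma, adjusted p = 1.0e-08). Serpina3n, a serine protease inhibitor of the acute phase, had 8.28, 7.93, 7.90 and 8.47 in CX hearts, against 10.59, 10.25, 11.05 and 10.78 in sham hearts. Its log2 change was -2.52 ± 0.23 (SE), and every CX array lay below every sham array. Of the 17 tested genes of the complement and acute phase list, 5 were called lower and 1 higher (35.3% called, against 9.26% of all genes), with a median log2 change of -0.07. The others that fell were Cp, the copper-carrying ferroxidase ceruloplasmin (log2 change -0.89 ± 0.16), C4b, a complement component cleaved early in the cascade (-0.81 ± 0.13), and Clu, the extracellular chaperone clusterin (-0.40 ± 0.08). Lrg1 and Ahsg, 2 further plasma glycoproteins picked after their values were seen, were also lower (-0.90 and -0.78). Thus the called members of this list were mostly lower in CX hearts while its median member changed little.

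Several other secreted or extracellular products were among the 15 genes with the largest decrease. Ptgds, the lipocalin-type prostaglandin D synthase, had log2 signals of 11.43, 11.42, 10.92 and 10.64 in CX hearts, against 13.14, 13.28, 13.20 and 12.65 in sham hearts (log2 change -1.96 ± 0.17). All CX arrays were low, and none of the other 11 tested genes of prostaglandin metabolism was called. Mmp3, the matrix metalloproteinase stromelysin 1, had 7.62, 7.45, 7.30 and 8.003 in CX hearts, against 8.90, 8.75, 9.08 and 8.90 in sham hearts (-1.32 ± 0.19). Ttr, the thyroid hormone and retinol carrier transthyretin, was not detected in CX hearts and was at least 1.98-fold lower there. Klk1b26, a protease of the kallikrein family, was likewise not detected in CX hearts and was at least 1.49-fold lower. Kallikrein genes have near-identical copies, so that this probe may read more than its own gene.

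Enzymes of small-molecule metabolism made up most of the rest of those 15 genes. Hsd11b1, which regenerates active glucocorticoid from its inert keto form, had log2 signals of 9.93, 9.86, 9.50 and 9.56 in CX hearts, against 11.02, 10.88, 10.96 and 10.92 in sham hearts. It fell by 1.23 on the log2 scale (SE 0.09, limma, adjusted p = 1.5e-07), with no overlap, and its other probe fell by 1.15. Fah, the last enzyme of tyrosine breakdown, had 10.95, 11.29, 10.94 and 11.26 in CX hearts and 12.22, 12.23, 12.41 and 12.27 in sham hearts (-1.17 ± 0.10). Every CX array was again below every sham array, and the same held for the microsomal glutathione transferase Mgst1 (-1.15 ± 0.12) and for Bdh1, the mitochondrial dehydrogenase of ketone body metabolism (-1.11 ± 0.19). Sult1a1, a phenol sulfotransferase, and Inmt, an indole N-methyltransferase, were lower by 0.98 and 0.96 on the log2 scale. Smim41, which encodes a small membrane protein, fell by 1.01. Gnmt (glycine N-methyltransferase) and Abat (GABA transaminase), chosen after their values were seen, had log2 changes of -0.80 and -0.75.

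**Figure D2:**
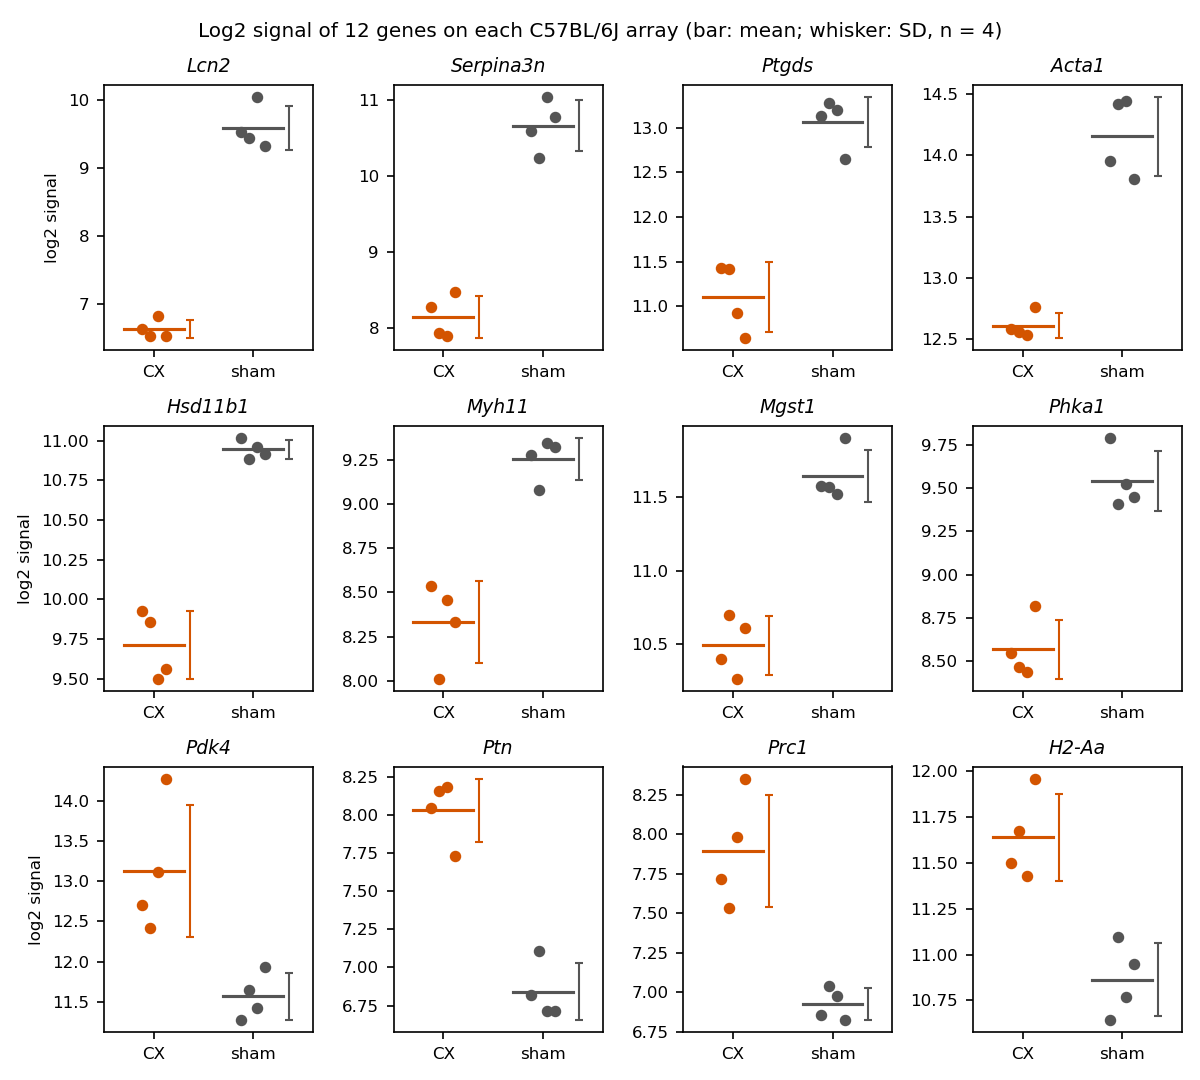
Log2 signal of 12 genes on each array, CX left of sham (C57BL/6J, 4 mice each), with a bar at the group mean and whiskers of 1 SD. The 4 CX arrays lie below the 4 sham arrays for Lcn2, Serpina3n, Ptgds, Acta1, Hsd11b1, Myh11, Mgst1 and Phka1, and above them for Pdk4, Ptn, Prc1 and H2-Aa.

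Within the sarcomere and Z-disc list the change with the largest size was that of Acta1, which encodes skeletal α-actin, an actin isoform of the growing and the overloaded heart. Its log2 signals were 12.59, 12.56, 12.54 and 12.76 in CX hearts, against 13.96, 14.42, 14.44 and 13.81 in sham hearts. The groups did not overlap, and Acta1 fell by 1.55 on the log2 scale (SE 0.17, limma, adjusted p = 1.0e-05), or 2.92-fold. Of the 27 tested genes of the sarcomere and Z-disc, 5 were called lower, against 4.94% of all genes, and 0 higher. Values were negative in 22 of 27, with a median of -0.07. Besides Acta1, the calls that remained when any 1 of the 16 arrays was left out were those of Myot, the Z-disc protein myotilin (-0.54 ± 0.12), and Pdlim5, a Z-disc scaffold of the enigma family (-0.43 ± 0.09). Those of Myom1 (-0.24) and Mybpc3 (-0.22) were lost on leaving out 1 array. In the hypertrophy list 5 of 11 tested genes were lower, against 4.94% of all genes, and 1 was higher, with a median of -0.29. Its members included Timp1, a metalloproteinase inhibitor (-0.76 ± 0.16), Fhl1, a LIM protein of the titin spring region (-0.35 ± 0.08), and the calcineurin inhibitor Rcan1 (-0.27). With median scaling, under which 197 of the 12764 probes were called lower, 2 of the 11 were called. Nppb, the gene of B-type natriuretic peptide, had log2 signals of 13.69, 13.60, 13.95 and 14.06 in CX hearts, against 14.05, 14.22, 14.36 and 14.64 in sham hearts, and it did not pass the test (limma, adjusted p = 0.13). The fetal myosin gene Myh7 was not called either (-0.29 ± 0.21).

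Acta1 is shown with its proximal promoter, because actin genes of muscle are classical targets of serum response factor through the CArG box, a motif printed in capitals. The sequence is that of RefSeq, build GRCm38.p6, written 5′ to 3′ along the gene.
Acta1, chr8:123894809-123894878, minus strand: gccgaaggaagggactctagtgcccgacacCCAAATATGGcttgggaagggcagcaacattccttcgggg
Promoter windows of 300 bases (250 before and 50 after the annotated start) were searched on both strands. A CArG box was found in 1 of the 14 windows available for the 15 genes with the largest decrease (Acta1), in 2 of the 12 windows available for the 15 with the largest increase (H2ac22 and Myl7), and in 1.71% of 7202 tested genes. None of the 26 windows held a full palindromic androgen response element (AGAACA and TGTTCT, 3 bases apart), which is rare (0.0139% of tested genes), and a window this short says nothing of sites elsewhere.

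Genes of excitation and of calcium handling changed in both directions. Kcne1, the accessory subunit of the slow delayed-rectifier potassium channel, had log2 signals of 9.29, 9.65, 9.43 and 9.56 in CX hearts, against 8.74, 8.73, 8.61 and 8.48 in sham hearts (0.85 ± 0.14). Kcnq1, which forms the pore of that channel, had 8.12, 8.07, 8.09 and 8.07 in CX hearts, against 8.55, 8.43, 8.52 and 8.34 in sham hearts (-0.37 ± 0.08). Thus the pore and its accessory subunit moved in opposite directions, without overlap of the groups in either. Of 19 tested channel and pump genes 3 were higher and 5 lower (42.1%, against 9.26% of all genes). Kcnk3, which encodes a background potassium channel, was also lower (-0.38 ± 0.09). The calls of Kcna5 and Kcnip2, which were higher, and of Kcnj12, Atp1b1 and Fxyd5, which were lower, were lost on leaving out 1 array. With median scaling, under which 197 of the 12764 probes were called lower, 1 gene of that list was called lower. Slc8a1, the sodium-calcium exchanger, was the main change in the calcium handling list, with 12.89, 12.62, 12.70 and 12.74 in CX hearts and 13.48, 13.23, 13.46 and 13.17 in sham hearts (-0.60 ± 0.08). The genes of the calcium pump (Atp2a2, -0.03 ± 0.06) and of phospholamban (Pln, -0.03 ± 0.09) were not called. No gene of the intercalated disc list passed (0 of 16).

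Metabolic genes gave a few large changes in control points, and no tested subunit of oxidative phosphorylation was called. Pdk4, the kinase that closes pyruvate dehydrogenase and so spares glucose, had log2 signals of 12.71, 12.42, 13.11 and 14.27 in CX hearts, against 11.27, 11.64, 11.43 and 11.94 in sham hearts. All CX arrays were above all sham arrays, CX replicate 4 being the highest, with a log2 change of 1.56 ± 0.27 (limma, adjusted p = 0.0019). Phka1, the muscle α subunit of phosphorylase kinase, which starts glycogen breakdown, had 8.55, 8.47, 8.44 and 8.82 in CX hearts, against 9.79, 9.40, 9.52 and 9.45 in sham hearts (-0.97 ± 0.11). Hk1, a hexokinase, was lower (-0.50 ± 0.10), as was the pyruvate dehydrogenase phosphatase Pdp2 (-0.31 ± 0.08). Thus within glycolysis, glycogen and pyruvate 4 of 31 tested genes were lower, against 4.94% of all genes. The brain-type glycogen phosphorylase Pygb was the 1 gene that was higher, a call lost on leaving out 1 array. In fatty acid uptake and oxidation 3 of 35 were higher (Pdk4, the uncoupling protein Ucp3 and the thiolase Acaa2) and 2 lower. The shares over all genes were 4.33% higher and 4.94% lower. The calls of Ucp3 and Acaa2 were lost on leaving out 1 array. In fatty acid synthesis 0 of 17 tested genes were higher and 4 lower, against the same shares. Nr1h3, the liver X receptor α, had 8.98, 9.16, 8.82 and 8.99 in CX hearts, against 9.69, 9.77, 9.62 and 9.86 in sham hearts (-0.75 ± 0.10). Its lipogenic partners Srebf1 (-0.51 ± 0.11) and Scd1, the stearoyl-CoA desaturase (-0.42 ± 0.07), fell as well. Among the 20 tested genes of the citric acid cycle list, Got1, the cytosolic aspartate transaminase, kept its call whichever array was left out (-0.43 ± 0.09).

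None of 71 tested subunits of oxidative phosphorylation was called, their log2 changes lying between -0.18 and 0.25 with a median of -0.02. The same was found for 0 of 23 genes of mitochondrial fusion, fission and import, 0 of 19 of cholesterol synthesis and uptake and 0 of 9 of polyamine metabolism. In the antioxidant list 5 of 41 were lower and 2 higher, against 4.94% and 4.33% of all genes. Gpx3, the plasma glutathione peroxidase (-0.47 ± 0.09), and Gsta4, a glutathione transferase of lipid aldehydes (-0.44 ± 0.08), were below sham beside Mgst1. Ces1d, a lipase of the carboxylesterase family that was chosen after its values were seen, was higher in CX hearts (14.20, 14.13, 14.21 and 14.01, against 13.21, 13.67, 13.54 and 13.22 in sham hearts, log2 change 0.73 ± 0.09).

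**Figure D3:**
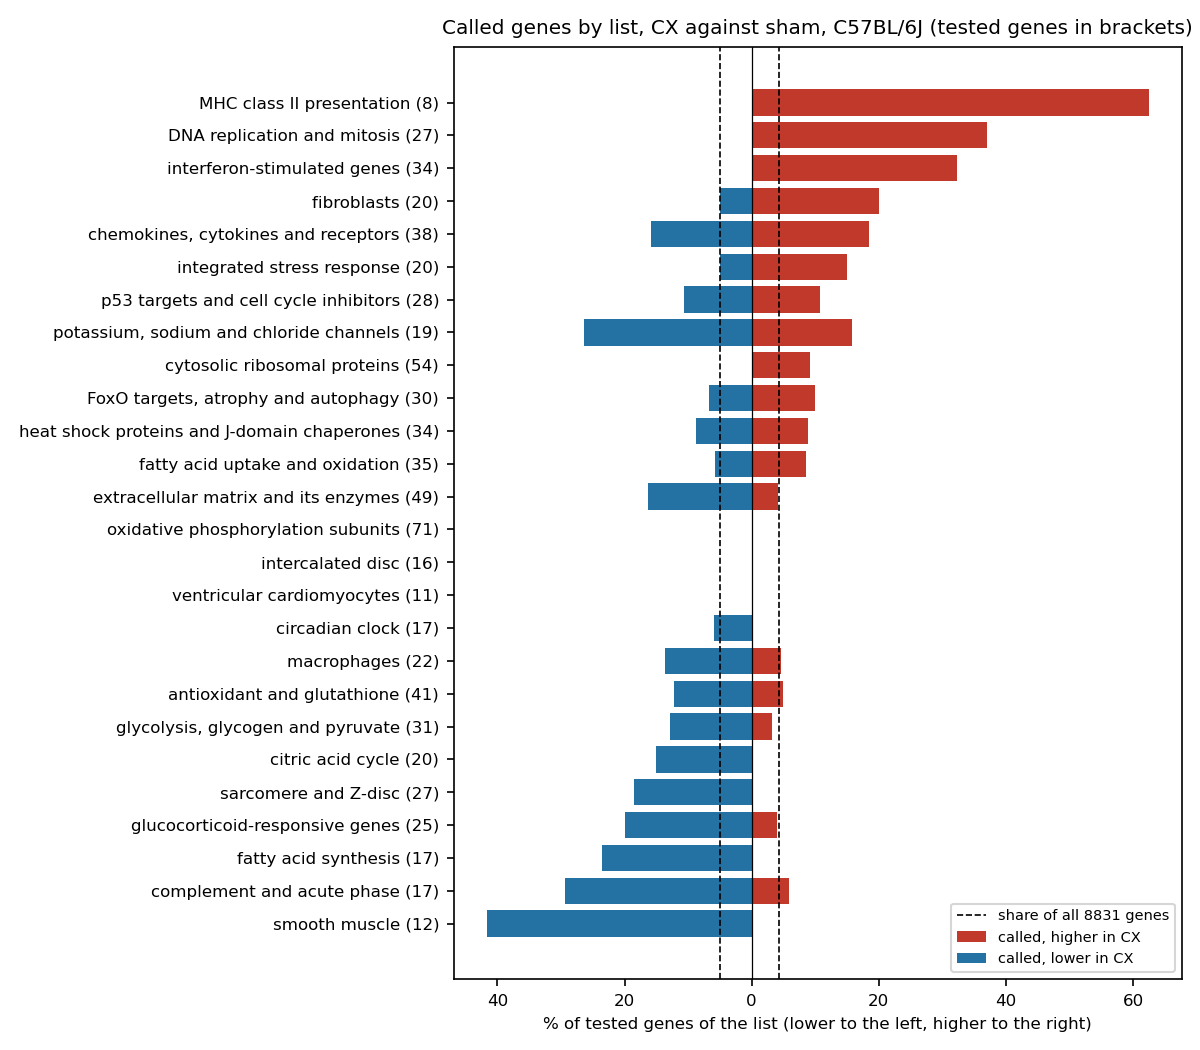
Share of the tested genes of 26 lists that were called higher or lower in CX than in sham hearts (C57BL/6J, percent of genes at their brightest probe). Dashed lines mark the shares over all 8831 genes (4.33% higher and 4.94% lower). MHC class II presentation (5 of 8 higher) reached farthest to the right among these lists. DNA replication and mitosis had 10 of 27 higher and smooth muscle 5 of 12 lower. The 26 are a selection from 55 lists, and the hypertrophy list had a larger share called lower than smooth muscle.

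Growth-related genes moved upward where cell division was concerned. In the list DNA replication and mitosis, 10 of 27 tested genes were called higher (37%, against 4.33% of all genes) and 0 lower, with 24 of 27 positive and a median of 0.23. Prc1, a microtubule bundler of the dividing cell, had log2 signals of 7.72, 7.53, 7.98 and 8.35 in CX hearts, against 6.85, 7.04, 6.97 and 6.82 in sham hearts, where it was detected on 1 array (log2 change 0.97 ± 0.17). Mcm5, a subunit of the replicative helicase, had 8.23, 8.37, 8.40 and 8.53 in CX hearts, against 7.97, 7.87, 7.97 and 7.89 in sham hearts (0.46 ± 0.09, limma, adjusted p = 0.0043). Neither gene overlapped between groups. Tyms, the thymidylate synthase (0.38 ± 0.08), Cdc20, an activator of the anaphase-promoting complex (0.36 ± 0.09), and Mcm4, another helicase subunit (0.32 ± 0.08), were also higher whichever array was left out. The kinesin gene Kif22, not detected in sham hearts, was at least 1.14-fold higher. The calls of Nusap1, Tubb5, Mcm6 and Cdt1 were lost on leaving out 1 array, and with any 1 C57BL/6J array left out 7 to 12 genes of this list were called. With the atrial covariate, under which 80 of the 12764 probes were called, 2 of 27 were called, with a median of 0.30. In C57.YA, where 20.5% of all genes were called in either direction, 9 of 27 were higher and 0 lower (median 0.17).

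Promoter sequences of 3 of these genes are printed because E2F factors, which switch on replication genes at the entry into S phase, bind the letters TTTGGCGC, here in capitals on either strand. They are RefSeq sequences of build GRCm38.p6, 5′ to 3′ along each gene.
Mcm5, chr8:75109330-75109397, plus strand: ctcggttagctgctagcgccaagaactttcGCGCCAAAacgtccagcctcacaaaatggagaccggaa
Mcm6, chr1:128359715-128359845, minus strand: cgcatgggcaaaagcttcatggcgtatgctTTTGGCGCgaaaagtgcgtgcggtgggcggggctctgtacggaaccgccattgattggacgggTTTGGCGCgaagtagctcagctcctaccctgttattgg
Cdt1, chr8:122568017-122568064, plus strand: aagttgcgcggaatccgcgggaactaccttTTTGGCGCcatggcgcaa
Of 25 genes of the list that had a promoter window, these 3 held the motif (12%), against 0.958% of all tested genes. All 3 were among the 9 called genes with a window, and 0 of the 16 others held it. Mcm6 had 2 copies, and its log2 change was 0.28, beside 0.27 for Cdt1 and 0.46 for Mcm5.

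The core histone genes, many of which are expressed while DNA is being copied, were looked at after their values were seen. In the H2A family 6 of 10 tested genes were higher and 0 lower, against 4.33% and 4.94% of all genes. H2ac7 had log2 signals of 8.26, 8.63, 8.72 and 8.99 in CX hearts, against 7.55, 7.55, 7.52 and 7.30 in sham hearts (1.17 ± 0.15). H2ac12 (0.93), H2ac22 (0.93) and H2ac10 (0.92) were also among the 15 genes with the largest increase. Their coding sequences are nearly identical, so that the probes may read each other's transcripts and the 6 genes are not 6 separate observations. The H2B family did not follow (0 of 9 higher and 2 lower), nor did H4 (0 of 7 called), while H3 had 1 higher and 2 lower of 6, against the same shares. Whether the H2A rise bears on DNA copying was not tested.

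Growth factors and cell cycle regulators changed individually. Ptn, the heparin-binding growth factor pleiotrophin, had log2 signals of 8.04, 8.16, 8.18 and 7.73 in CX hearts, against 6.82, 7.11, 6.72 and 6.71 in sham hearts, where it was detected on 1 array (1.19 ± 0.11). Its only relative, Mdk (midkine), had 8.39, 8.62, 8.68 and 8.53 in CX hearts, against 7.84, 7.98, 7.94 and 8.04 in sham hearts (0.61 ± 0.07). Both members of this small family were therefore above sham in every CX heart. Dkk3, a secreted relative of the Wnt inhibitors that is also abundant in atria, rose by 1.28 ± 0.11 (SE) on the log2 scale. Gadd45g, a stress sensor that restrains the cell cycle, had 11.76, 11.78, 11.57 and 11.59 in CX hearts and 10.84, 10.63, 10.96 and 10.99 in sham hearts (0.82 ± 0.10). Gadd45a was higher too (0.50 ± 0.07), and so was Gadd45b (0.62), whose call was lost on leaving out 1 array. Among 25 tested genes of IGF, insulin and mTOR signaling 1 was higher (Igfbp7, 0.25 ± 0.07) and 1 lower (Mtor, -0.26, a call lost on leaving out 1 array). Bmp4 was higher (0.33 ± 0.08) within the TGF-beta family list, where 2 of 31 were called. Prnd, the gene of the prion-like protein doppel, was not detected in sham hearts and was at least 1.76-fold higher in CX hearts. Hamp, which encodes the iron hormone hepcidin, was likewise not detected in sham hearts and was at least 1.80-fold higher. Its CX signals were 7.72, 8.68, 7.85 and 6.97, with CX replicate 2 the highest, as for the atrial genes Myl7, Myl4, Sln and Mybphl. Its log2 change was 0.10 in C57.YA, and -0.59 in C57BL/6J with the atrial covariate. Whether atrial RNA bears on its rise was not otherwise tested.

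Immune genes included a list in which most of the tested genes were called. In MHC class II presentation, the set of genes with which dendritic cells, B cells and activated macrophages display peptides to helper T cells, 5 of 8 tested genes were higher (62.5%) and 0 lower, with all 8 positive and a median of 0.48. H2-Aa had log2 signals of 11.50, 11.67, 11.43 and 11.96 in CX hearts, against 10.64, 11.09, 10.77 and 10.95 in sham hearts. No CX array fell among the sham arrays, and the log2 change was 0.78 ± 0.13 (limma, adjusted p = 0.00085). H2-Ab1, which encodes the partner chain, had 11.04, 11.23, 10.997 and 11.15 in CX hearts, against 10.29, 10.54, 10.34 and 10.50 in sham hearts (0.69 ± 0.13), and each of its 4 probes was called. H2-Eb1 (0.70 ± 0.15), the invariant chain Cd74 (0.51 ± 0.12) and the peptide-loading chain H2-DMa (0.44 ± 0.09) completed the 5. They were called whichever C57BL/6J array was left out and with median scaling. With the atrial covariate, under which 80 of the 12764 probes were called, 0 of 8 were called and the median was 0.53. In C57.YA, where 20.5% of all genes were called in either direction, 7 of 8 were higher (median 0.81). Between the strains 0 of 8 differed by the interaction test. Of 17 tested genes of MHC class I and the immunoproteasome all had positive values (median 0.16), and 1 was called, H2-K1 (0.33 ± 0.09). Class I genes share long stretches of sequence, so that this probe may read several of them.

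Of 34 tested interferon-stimulated genes, 11 were higher (32.4%, against 4.33% of all genes) and 0 lower, with a median of 0.18. Cmpk2, a mitochondrial nucleotide kinase induced by interferon, had log2 signals of 8.99, 8.90, 9.02 and 9.45 in CX hearts, against 8.48, 8.72, 8.46 and 8.40 in sham hearts (0.58 ± 0.11). Igtp, a GTPase that guards against intracellular parasites, had 9.66, 9.60, 9.56 and 9.44 in CX hearts, against 8.85, 9.07, 8.75 and 9.32 in sham hearts (0.57 ± 0.14). Cxcl9, a chemokine that draws T cells, had 9.004, 9.14, 9.14 and 9.36 in CX hearts and 8.48, 8.78, 8.40 and 8.88 in sham hearts (0.53 ± 0.13). None of the 3 genes overlapped between groups, although sham replicate 4 came close to the CX arrays for Igtp. The related GTPase Irgm2 (0.53 ± 0.13), the membrane protein tetherin encoded by Bst2 (0.49 ± 0.12) and Irf9, the DNA-binding part of the interferon-activated ISGF3 complex (0.33 ± 0.08), also kept their calls whichever array was left out. The calls of Gbp3, Ifi47, Ifit3, Rsad2 and Usp18 were lost on leaving out 1 array, and with any 1 C57BL/6J array left out 6 to 12 of the interferon-stimulated genes were called. With the atrial covariate, under which 80 of the 12764 probes were called, 2 of 34 were called, and the median was 0.54. In C57.YA, where 20.5% of all genes were called in either direction, 18 of 34 were higher and 0 lower (median 0.25).

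A stretch of promoter is shown for 4 of these genes because ISGF3 and the interferon regulatory factors bind the letters GAAA repeated after a gap of 2 bases (TTTC when read on the other strand), which are in capitals. The sequences are from RefSeq, build GRCm38.p6, 5′ to 3′ along each gene.
Igtp, chr11:58199492-58199561, plus strand: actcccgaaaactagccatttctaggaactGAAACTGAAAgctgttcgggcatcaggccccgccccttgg
Irgm2, chr11:58214883-58214952, plus strand: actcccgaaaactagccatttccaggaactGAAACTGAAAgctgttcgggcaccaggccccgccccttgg
Bst2, chr8:71537557-71537632, minus strand: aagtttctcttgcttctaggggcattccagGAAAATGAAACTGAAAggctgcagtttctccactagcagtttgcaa
Ifit3, chr19:34583343-34583446, plus strand: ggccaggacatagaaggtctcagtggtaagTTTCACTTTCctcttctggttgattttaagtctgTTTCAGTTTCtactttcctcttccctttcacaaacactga
In Bst2 the capitals cover 2 overlapping matches, and the stretches of the neighbouring genes Igtp and Irgm2 are nearly the same. The motif was found in 13 of the 27 interferon-stimulated genes with a promoter window (48.1%), against 3.57% of 7202 tested genes with a window. It stood in 6 of 10 called genes (60%) and in 7 of 17 that were not called (41.2%).

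**Figure D4:**
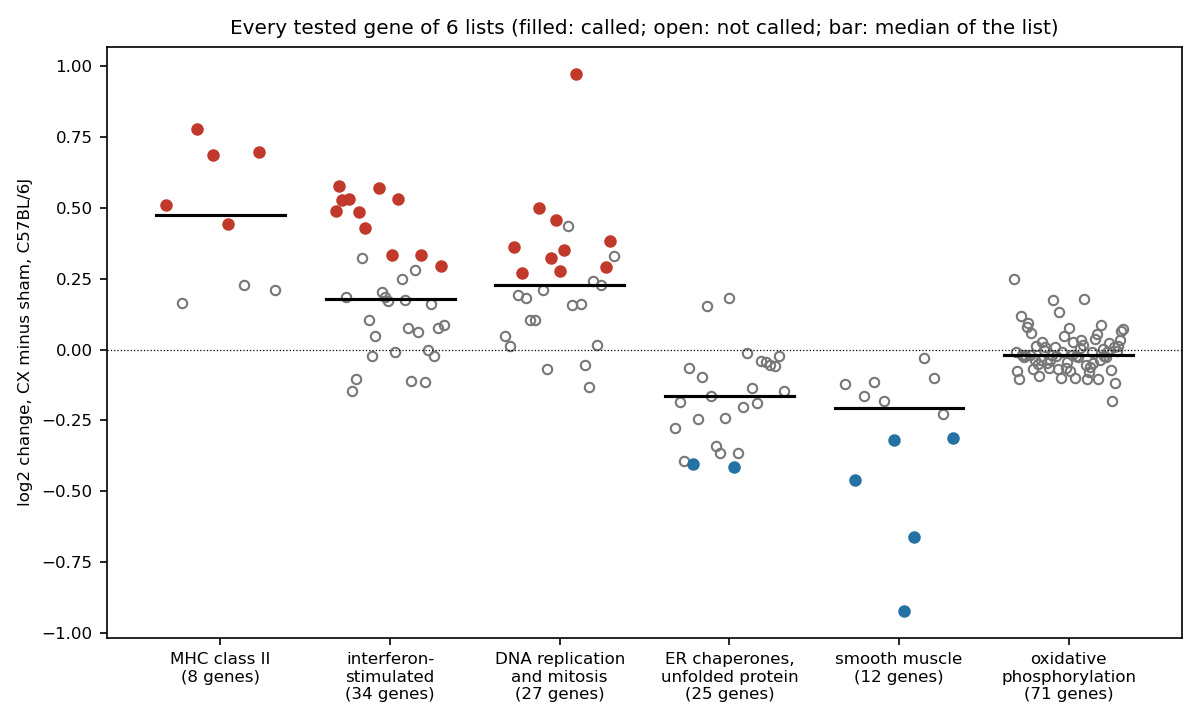
Log2 change (CX minus sham, C57BL/6J, 4 mice each) of every tested gene of 6 lists, with a bar at the median of each list and called genes coloured. All 8 genes of MHC class II presentation lie above 0 (median 0.48), all 12 genes of smooth muscle lie below 0 (median -0.20), and the 71 subunits of oxidative phosphorylation lie between -0.18 and 0.25.

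Leukocyte markers and chemokines changed in both directions. In the macrophage list 1 of 22 tested genes was higher and 3 lower, against 4.33% and 4.94% of all genes. Values were negative in 18 of the 22, with a median of -0.22. Cx3cr1, the fractalkine receptor of monocytes and some resident macrophages, had log2 signals of 7.79, 7.71, 7.92 and 7.97 in CX hearts, against 7.39, 7.18, 7.32 and 7.31 in sham hearts (0.55 ± 0.10). F13a1, a coagulation factor subunit made by resident macrophages, had 9.998, 9.54, 10.18 and 10.35 in CX hearts, against 10.91, 11.02, 10.66 and 10.91 in sham hearts (-0.86 ± 0.17). The 2 genes moved apart, each without overlap. Lyve1 (-0.49) and Mrc1 (-0.35), also of resident macrophages, lost their calls on leaving out 1 array, and the number of macrophage genes called lower was 1 to 10 according to which C57BL/6J array was left out, 10 being the count without CX replicate 4. The summed log2 signal of the 22 genes was 14.20 to 14.64 in CX hearts and 14.55 to 14.69 in sham hearts, so that the groups overlapped. Vsig4, a complement receptor of resident macrophages chosen after its values were seen, had a log2 change of -0.92 ± 0.11. Among chemokines, cytokines and their receptors 7 of 38 were higher and 6 lower, against 4.33% and 4.94% of all genes. Ccl11, the eosinophil chemokine eotaxin, had 7.36, 7.40, 7.72 and 7.30 in CX hearts, against 8.49, 8.34, 8.08 and 8.71 in sham hearts (-0.96 ± 0.12), and Cxcl14 was lower as well (-0.75 ± 0.11). Ccl21a, which guides lymphocytes and dendritic cells along lymphatic vessels, was higher (0.78 ± 0.16), but Ccl21 genes have near-identical copies. Ccl4 was also higher (0.54 ± 0.11), and Ccl6 was lower (-0.51 ± 0.11). The neutrophil genes S100a8 (-0.99) and S100a9 (-0.71) were lower, both calls being lost on leaving out 1 array.

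Vessel and matrix genes differed between cell types. All 12 tested genes of smooth muscle were negative (median -0.20), 5 being called lower (41.7%, against 4.94% of all genes) and 0 higher. Myh11, the myosin heavy chain that defines differentiated smooth muscle, had log2 signals of 8.54, 8.01, 8.46 and 8.33 in CX hearts, against 9.28, 9.08, 9.34 and 9.32 in sham hearts. It fell 1.89-fold without overlap (log2 change -0.92 ± 0.10, limma, adjusted p = 2.0e-05). Mylk, the myosin light chain kinase that starts contraction in these cells, had 8.43, 7.96, 8.55 and 8.35 in CX hearts, against 9.02, 8.83, 8.99 and 9.09 in sham hearts (-0.66 ± 0.12). The calls of Actg2, Mustn1 and Tpm2 were lost on leaving out 1 array, and Acta2, the gene of smooth muscle α-actin, was not called (-0.12 ± 0.19). With any 1 C57BL/6J array left out, 2 to 5 smooth muscle genes were called lower. With the atrial covariate, under which 80 of the 12764 probes were called, 0 were lower and 1 was higher, with a median of 0.05. The summed log2 signal of the smooth muscle list was 14.17 to 14.88 in CX hearts and 14.46 to 14.92 in sham hearts. Windows of 8 genes of the list were available, and 0 held a CArG box. In C57.YA, where 20.5% of all genes were called in either direction, 9 of 12 were lower and 0 higher (median -0.36). Notch3, the Notch receptor of mural cells, was the pericyte gene that was called (-0.44 ± 0.11, 1 of 9), and among 34 endothelial genes 1 was higher (Aqp1, the water channel, 0.27 ± 0.07) and 1 lower.

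In the extracellular matrix list 2 of 49 tested genes were higher and 8 lower, against 4.33% and 4.94% of all genes. Lum, the collagen-binding proteoglycan lumican, had log2 signals of 11.46, 11.41, 11.60 and 11.68 in CX hearts, against 10.81, 10.85, 10.84 and 10.59 in sham hearts (0.76 ± 0.09). Tnxb, the matrix glycoprotein tenascin X, had 9.59, 8.84, 9.57 and 9.64 in CX hearts, against 10.10, 10.07, 10.13 and 10.15 in sham hearts (-0.70 ± 0.13). Both are made by fibroblasts, and they moved in opposite directions without overlap. The aggrecanase Adamts5 (-0.56 ± 0.14), the elastic-fibre protein Fbln2 (-0.50 ± 0.12) and the collagen prolyl hydroxylase P4ha2 (-0.44 ± 0.08) were lower. Col3a1 was higher (0.56), a call lost on leaving out 1 array, and Col1a1, the main fibrillar collagen gene, was not called (-0.10 ± 0.16). Of 20 fibroblast markers 4 were higher and 1 lower, against 4.33% and 4.94% of all genes. Mfap4, a microfibril protein, had 8.24, 7.85, 8.75 and 9.45 in CX hearts, against 7.52, 7.79, 7.92 and 7.40 in sham hearts (0.91 ± 0.23), CX replicate 4 being far above the others and CX replicate 2 within the sham range. Dpep1, a membrane dipeptidase, had 9.20, 9.04, 8.84 and 8.83 in CX hearts and 9.71, 9.95, 9.88 and 9.82 in sham hearts (-0.86 ± 0.11). The summed signal of the 20 markers was 15.53 to 15.79 in CX hearts and 15.61 to 15.79 in sham hearts.

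Stress genes were split as well. Atf3, a stress-induced transcription factor, had log2 signals of 7.48, 7.72, 7.47 and 7.64 in CX hearts, against 6.78, 6.46, 6.77 and 6.99 in sham hearts (0.83 ± 0.13). Dnajb1, a cytosolic partner of the inducible heat shock protein of the Hsp70 family, had 11.62, 11.60, 11.68 and 11.88 in CX hearts and 11.26, 11.01, 11.08 and 11.001 in sham hearts (0.61 ± 0.11). Both were higher in every CX heart. Cebpb, a transcription factor of the acute response, was higher too (0.53 ± 0.13), and so was Sqstm1, the autophagy receptor p62 (0.37 ± 0.07). Among the 34 tested heat shock proteins and J-domain chaperones 3 were higher and 3 lower, against 4.33% and 4.94% of all genes. Hspa2 was up (0.48 ± 0.08), and Hspa1l (-0.46 ± 0.08) and the muscle protein Hspb7 (-0.36 ± 0.09) were down. The heat shock element (GAA, TTC and GAA, each 2 bases apart), searched on both strands, was in 5 of 28 promoter windows of that list (17.9%, against 0.555% of tested genes) and in 0 of the 3 genes called higher. In the list of endoplasmic reticulum chaperones and unfolded protein response 23 of 25 genes were negative (median -0.16), but only Dnajb9 (-0.41 ± 0.10) and Pdia3 were called. With median scaling, under which 197 of the 12764 probes were called lower, 0 genes of that list were called. Fbxo32, the ubiquitin ligase atrogin-1 of muscle wasting, had 10.21, 9.98, 10.27 and 10.13 in CX hearts, against 10.45, 10.71, 10.59 and 10.42 in sham hearts (-0.39 ± 0.09). Trim63, the other classical ligase of wasting, was not called (0.10 ± 0.09). Of 54 cytosolic ribosomal protein genes 5 were higher, against 4.33% of all genes, and 0 lower, with 46 positive and a median of 0.09. However, 1 to 9 were called higher according to which C57BL/6J array was left out. Rbm3 and Cirbp, cold-inducible RNA-binding proteins picked after their values were seen, were higher (0.70 ± 0.09 and 0.60 ± 0.11).

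Genes of steroid action were called at shares that differed between lists. Of 20 tested genes known as androgen targets in the prostate and elsewhere, 1 was higher (Stk39) and 2 lower (Fkbp5 and the metallothionein Mt1), or 15% against 9.26% of all genes. Fkbp5, the steroid receptor co-chaperone, had log2 signals of 7.11, 7.22, 7.12 and 7.48 in CX hearts and 7.63, 7.81, 7.89 and 8.02 in sham hearts (-0.60 ± 0.17). Its call was lost without sham replicate 4 (limma, adjusted p = 0.11), and those of Stk39 and Mt1 were also lost on leaving out 1 array. Among 25 glucocorticoid-responsive genes 1 was higher (Pdk4) and 5 lower, or 24% against 9.26% of all genes. The 5 were Lcn2, Sult1a1, Fkbp5, Mt1 and Cdo1, the cysteine dioxygenase (-0.67 ± 0.11). Among 23 steroid and nuclear receptors with coregulators 1 was lower (4.35%), the enzyme gene Hsd11b1, and the glucocorticoid receptor gene Nr3c1 was not called (0.02 ± 0.09). Of 17 clock genes 1 was called, Nr1d1, the heme-binding repressor of the clock (-0.45 ± 0.09), with a median of 0.03. In C57.YA, where 20.5% of all genes were called in either direction, 11 were higher and 4 lower. The interaction test was passed by 12 of the 17, against 2.88% of all probes. All mice were killed within the same morning hour. None of the 3 tested genes of chromosome Y was called.

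The response was set beside that of C57.YA by testing the difference between the 2 changes at each probe. Over all probes 368 (2.88%) passed this test. Of the 1124 probes called in C57BL/6J, 117 passed it, 96 with the larger change in C57BL/6J and 86 with the opposite sign in C57.YA. These probes were chosen by their call in C57BL/6J, which favours a larger change there. The 96 therefore say nothing of which strain responded more. At the other 1007 no difference was called, which does not show that the strains responded alike. In all, 567 of the 1124 were also called in C57.YA, where 19.7% of all tested probes were called. Of the 30 genes with the largest changes, 9 passed the interaction test: Myl7, Myl4, Sln, Mybphl, Hamp, Pdk4, Dkk3, Hsd11b1 and Lcn2. Pdk4 changed by 1.56 in C57BL/6J and by -0.17 in C57.YA on the log2 scale (limma interaction, adjusted p = 0.03), and Hsd11b1 by -1.23 and -0.61 (adjusted p = 0.018 by the same test). Serpina3n, in contrast, changed by -2.52 and -2.29 and Acta1 by -1.55 and -1.11, with no difference called. Fbxo32 had opposite changes, of -0.39 in C57BL/6J and 0.76 in C57.YA, and so had the phosphofructokinase-2 gene Pfkfb2 (-0.36 and 0.43). Atf3 (0.83, against -0.16 in C57.YA), Dnajb1 (0.61, against -0.24) and Gadd45g (0.82, against 0.10) were called in C57BL/6J and not in C57.YA, and their changes differed by the interaction test. Gadd45a and Bmp4 rose less in C57BL/6J (0.50 and 0.33) than in C57.YA (1.05 and 0.86). Inka2, an inhibitor of p21-activated kinase picked after its values were seen, was higher at 3 probes in C57BL/6J (0.74, 0.56 and 0.51), and all 3 passed the interaction test.

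**Figure D5:**
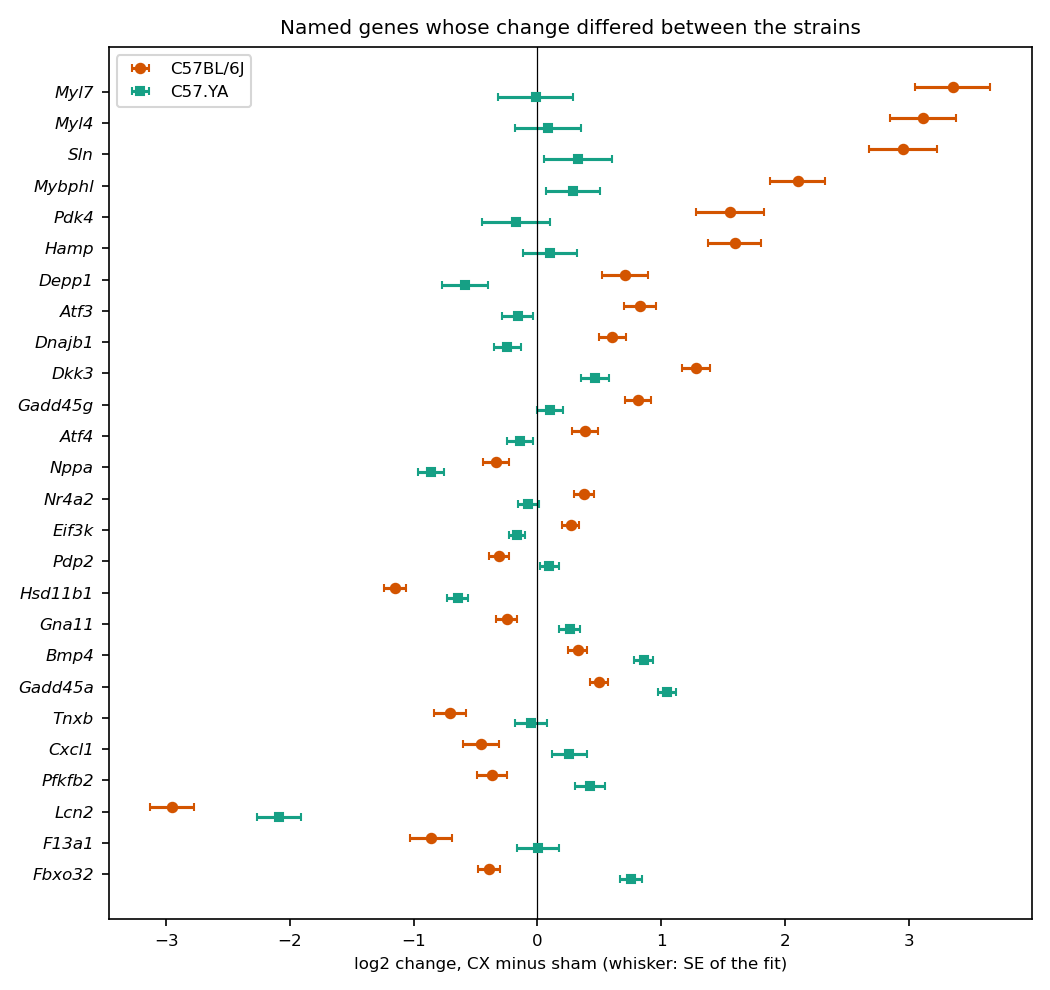
Log2 change (CX minus sham) ± SE of the 26 named genes whose change differed between the strains by the interaction test (adjusted p under 0.1), in C57BL/6J and in C57.YA, 4 mice per group. Myl7, Myl4, Sln and Mybphl lie above 2 in C57BL/6J and between -0.01 and 0.33 in C57.YA, and Fbxo32 lies below 0 in C57BL/6J (-0.39) and above 0 in C57.YA (0.76).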

How the data were processed

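RNA of 16 left ventricles was labelled with biotin and hybridized to 2 BeadChips of 8 arrays each. Which array lay on which chip is not given in the sources used here, so that chip could not be tested as a batch. The authors exported unnormalized probe intensity values and a detection p-value per probe, which rests on negative control probes, from BeadStudio, and these deposited values were used here. A deposited table of normalized log2 values was not used, because its rows did not follow the probe names (correlation with the intensities by name -0.00114 to 0.00138), and 32 other value columns were left out. Arrays had 11435 to 12212 detected probes and a mean signal of 733 to 1208, and their number, 4 per group, limits the precision.

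Intensities were turned to log2 without background subtraction and quantile-normalized. Probes with a detection p of at most 0.04 on 2 of 4 arrays of any group were fitted with limma 3.58.1 (R 4.3.3, statmod 1.5.0), with 1 mean per group over 16 arrays, and p-values were adjusted by the Benjamini-Hochberg method over all 12764 probes. The spread is that between mice. Gene symbols came from the platform annotation, updated through Entrez numbers to RefSeq symbols (23978 probes named, 1719 not). Promoters came from RefSeq, build GRCm38.p6.

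Named were the 15 genes with the largest called change in each direction whose CX and sham arrays did not overlap, and members of lists of known function or cell type, at the brightest probe. Genes outside these rules are marked in the text as chosen after their values were seen. Members and lists were chosen with earlier results of these data known. The lists held 1617 genes, of which 1167 were tested, and 740 of the 939 called genes were in none. For probes undetected on every array of a group, a bound is given as at least N-fold, computed against the lowest signal of a detected probe on each array or the probe's own signal, whichever was higher. Alternatives were normexp background correction, median scaling, other detection filters, ordinary variances, adaptive adjustment, a replicate block, weighted arrays, a threshold of 0.05, a fit of the strain alone, an atrial covariate and the omission of each array.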

Additional observations from a re-analysis of the deposited data

Results flagged for a closer look

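The change after castration differed between C57BL/6J and C57.YA, by the interaction test in limma (adjusted p under 0.1), at 27 probes of the named genes. Given as the C57BL/6J minus the C57.YA log2 change, the difference was 3.37 for Myl7, 3.03 for Myl4, 2.63 for Sln and 1.82 for Mybphl, the 4 atrial muscle genes. It was 1.73 for Pdk4, 1.49 for Hamp, 1.29 for Depp1, 0.988 for Atf3, 0.851 for Dnajb1 and 0.818 for Dkk3. Smaller positive differences were those of Gadd45g (0.714), Atf4 (0.528), Nppa (0.524), Nr4a2 (0.447) and Eif3k (0.433). Negative differences were those of Pdp2 (-0.406), Gna11 (-0.508), Bmp4 (-0.533), Gadd45a (-0.547), Tnxb (-0.648), Cxcl1 (-0.718), Pfkfb2 (-0.791), Lcn2 (-0.861), F13a1 (-0.863) and Fbxo32 (-1.15). The 2 probes of Hsd11b1 gave -0.507 and -0.627.

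In 19 of 380 groups of 4 arrays of named probes, a single array lay far from the other 3 by Dixon's ratio of its gap to the whole range, which chance gives in about 1 of 20 groups. Among CX arrays replicate 2 was low for Hspa2 (0.845), Notch3 (0.904), Pdlim5 (0.842), Thbs2 (0.86) and Tnxb (0.916). Replicate 4 was high for Actg2 (0.861) and Srebf1 (0.837) and low for Inmt (0.857), and replicate 1 was low for Cidea (0.854). Among sham arrays replicate 3 was high for Acaca (0.944) and Saa1 (0.889). Replicate 1 was low for Aqp1 (0.904) and Rcan2 (0.861), and replicate 2 was low for Ccl21a (0.867) and Sod3 (0.945) and high for Il16 (0.86). Replicate 4 was low for H2ac7 (0.88) and Lum (0.862) and high for Mgst1 (0.849).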

How the results depend on the processing

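With median scaling 563 probes were called in C57BL/6J, 197 of them lower, and 152 by the interaction test. At an adjusted p under 0.05 there were 675 (294 higher, 381 lower) and 184. Array weights gave 579 interaction calls. Leaving out 1 array gave 694 to 1243 calls in C57BL/6J, 319 to 587 higher and 375 to 656 lower, 1834 to 2671 in C57.YA and 200 to 654 by the interaction test. Without sham C57BL/6J replicate 4 the count was 694 and without sham C57BL/6J replicate 3 it was 720. Deviations of CX and sham arrays with the same replicate number were weakly correlated (0.0927, 0.0993, -0.0334 and 0.0733), and 2 of 4 CX arrays were closest to the sham array of their number. With the replicate block 1319 probes were called, 624 higher and 695 lower, against 1124 without it. Whether arrays of the same number shared an effect was not otherwise tested. Each of the 30 genes with the largest changes kept its call under every omission, and of all 190 named probes 108 did. With the atrial covariate 80 probes were called, 53 higher and 27 lower, and 53 by the interaction test, and 33 named log2 changes turned sign, none of them past the threshold: Hamp -0.59, Mybphl -0.24, Sln -0.034, Ccl5 -0.030, Ccl9 0.45, Ccng2 -0.078, Chordc1 0.043, Cxcl1 0.065, Depp1 -0.048, Dlst 0.070, Eng 0.41, F13a1 0.31, Fbln2 0.60, Fhl1 0.18, Fxyd5 0.088, Gadd45b -0.86, Lyve1 0.94, Mrc1 0.38, Mt1 0.040, Mylk 0.037, Notch3 0.41, Nppa 0.15, Osmr 0.20, Psme4 0.22, Rpl12 -0.023, Rps16 -0.044, Rps3 -0.049, Rrp12 0.17, Sod3 0.059, Thbs2 0.099, Tnxb 0.50, Tpm2 0.061 and Ucp3 -0.59. Mybphl and Sln are among the 4 genes averaged in the covariate, so that their values under it are set by construction. For the others the cause was not tested. No named gene turned sign under any other alternative run. Dim probes are limited by a signal close to the background.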
